A study of Mus musculus with 6 samples.

Results

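The collagen genes encode the chains of the collagens, the secreted proteins of the extracellular matrix, and were followed here in the developing mouse pancreas between 13.5 and 15.5 days post coitum (dpc). The members are a fixed list of 41 gene symbols, and all 41 were found among the 37224 Ensembl gene identifiers of the count table. Pancreata of wild-type (wt) C57/Bl6J embryos were profiled by RNA sequencing in 3 samples per stage. Each sample pooled the pancreata of up to 3 embryos, so a value may average over embryos and does average over all cell types of the organ. Poly(A) RNA was sequenced with strand-specific libraries, and the deposited values are raw counts per gene, with totals of 10546028 to 16389237 per sample. In whole pancreata, fewer cells of a type and less RNA per cell cannot be told apart.

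Each collagen is a trimer of chains that wind into a triple helix of glycine-rich repeats. Fibrillar collagens such as types I, III and V are made as procollagens, cleaved outside the cell and packed into the fibrils of connective tissue, whereas type IV chains form the sheet-like network of basement membranes, under epithelia and around vessels. FACIT collagens (fibril-associated collagens with interrupted triple helices) sit on the surface of fibrils. Transmembrane collagens span the plasma membrane and can be shed from it, type VI forms beaded filaments, and the multiplexins (types XV and XVIII) lie in or near basement membranes. In the embryonic pancreas, mesenchymal cells surround the branching epithelium, and these tissues meet at a basement membrane.

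The stretches just upstream of the transcription start are shown for 5 members, because they precede the genes on which the comparison turns. They are *Col5a3*, which rose most, *Col24a1*, *Col9a1* and *Col8a1*, which were among those that fell most, and *Col3a1*, which had the most counts. Each is the 150 bases before the start, from RefSeq (GRCm38.p6), read 5′ to 3′ in the direction of the gene. Capitals mark, on either strand, the TATA box as TATAAA, the CCAAT box as its 5 letters, and the GC box as GGGCGG.
*Col5a3*: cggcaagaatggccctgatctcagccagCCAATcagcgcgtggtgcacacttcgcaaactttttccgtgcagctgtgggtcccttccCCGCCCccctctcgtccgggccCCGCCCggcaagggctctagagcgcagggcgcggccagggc
*Col24a1*: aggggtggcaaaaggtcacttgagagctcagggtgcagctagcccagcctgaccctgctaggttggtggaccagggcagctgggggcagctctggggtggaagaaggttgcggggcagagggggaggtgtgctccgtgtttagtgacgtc
*Col9a1*: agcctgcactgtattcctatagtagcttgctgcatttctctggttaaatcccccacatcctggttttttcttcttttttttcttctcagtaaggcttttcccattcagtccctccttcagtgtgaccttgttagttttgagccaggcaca
*Col8a1*: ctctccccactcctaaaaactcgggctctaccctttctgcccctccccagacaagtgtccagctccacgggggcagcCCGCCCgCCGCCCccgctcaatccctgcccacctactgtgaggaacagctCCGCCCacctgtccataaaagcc
*Col3a1*: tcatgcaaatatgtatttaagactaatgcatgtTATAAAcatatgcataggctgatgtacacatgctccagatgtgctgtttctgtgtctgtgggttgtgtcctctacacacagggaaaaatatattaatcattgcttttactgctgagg
The *Col5a3* stretch lies at chr9:20815068-20815217 (minus strand), that of *Col24a1* at chr3:145292322-145292471 (plus strand), that of *Col9a1* at chr1:24177460-24177609 (plus strand), that of *Col8a1* at chr16:57754738-57754887 (minus strand) and that of *Col3a1* at chr1:45311388-45311537 (plus strand). The RefSeq table used here held stretches for 32 of the 41 members, 35 in all, and 32851 over all genes. *Col2a1* was not among the 32. Of the 5 shown, *Col8a1* held 3 GC boxes and *Col5a3* held 2 and a CCAAT box, *Col3a1* held a TATA box, and *Col24a1* and *Col9a1* held none of these letters. GGGCGG was present in 16 of the 35 member stretches (45.7%) against 28.6% of all, CCAAT in 8 (22.9%) against 24.5%, and TATAAA in 4 (11.4%) against 7.57%. ACAAT, the core of the sites bound by Sox proteins, which cannot match at the same place as CCAAT, was present in 1 (2.86%) against 17.4%. A match describes letters, not a bound site.

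The 15.5 dpc libraries differed from each other more than those at 13.5 dpc, and part of the spread between libraries followed gene length. Across the 15578 genes that passed a filter on low counts, the log2 fold change fell with exon length (Spearman's rho -0.36, a description over genes of the same 6 libraries). The deviation of 15.5 dpc replicate 1 from the 13.5 dpc mean had a rho of -0.48 with length, against 0.010 in replicate 2 and -0.35 in replicate 3. The 13.5 dpc libraries, set against their own mean, also had trends, of -0.24, -0.21 and 0.34 in replicates 1, 2 and 3, but the median of the long genes deviated by at most 0.03 there, against -0.29 in 15.5 dpc replicate 1. The collagen genes have 3095 to 15234 exon bases, with a median of 6809. Of all identifiers, 27.5% were at least as long as the shortest of them. Of the 15578 genes tested, 8757 were, and these are the long genes meant here. Of the 36 collagen genes tested, 29 were lowest of the 15.5 dpc samples in replicate 1 and 31 were highest in replicate 2 (80.6% and 86.1%, against 43.9% and 42.6% of all genes tested, and 63.1% and 63.0% of genes at least as long as the shortest member). Of the 15.5 dpc samples, replicate 1 also had the highest summed level of 7 acinar markers (973994 normalised counts) and replicate 2 the lowest (418684), and the part of this in the collagen values was not tested. The results are therefore given beside a fit with the length trend of each library removed and beside fits without single libraries. Removing the trend also removes any real stage difference that goes with length.

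Between 13.5 and 15.5 dpc, many minor collagen genes fell, whereas the genes of the most abundant collagens did not pass the test with all 6 libraries. *Col5a3* and *Col20a1* rose, and *Col2a1*, *Col24a1*, *Col9a1* and *Col8a1* fell to 0.324-fold or less of their level at 13.5 dpc. Of the 36 genes tested with the quasi-likelihood test of edgeR, 16 passed at an adjusted p of 0.05 or less, 2 higher and 14 lower at 15.5 dpc, and 21 had an unadjusted p below 0.05, as did 39.1% of all genes and 39.4% of the genes at least as long as the shortest member. Over all 15578 genes tested, 22.3% passed, 11.6% higher and 10.7% lower, and among the 8757 genes at least as long as the shortest member, 9.03% passed as higher and 14.0% as lower. The median log2 fold change was -0.43 over the collagen genes, -0.01 over all genes and -0.13 over the long genes. Below 0 were 26 of the 36, against 51.1% of all genes and 63.6% of the long genes. By the call rule of the study (protein-coding, adjusted p up to 0.1, more than 100 normalised counts at one stage, fold under 0.6 or over 1.6), 11 collagen genes passed, 1 higher and 10 lower, against 10.4% of all such genes (6.47% higher and 3.90% lower). With the length trend removed, 22 passed, 7 higher and 15 lower, against 32.8% of all genes (18.1% higher and 14.7% lower).

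**Figure D1:**
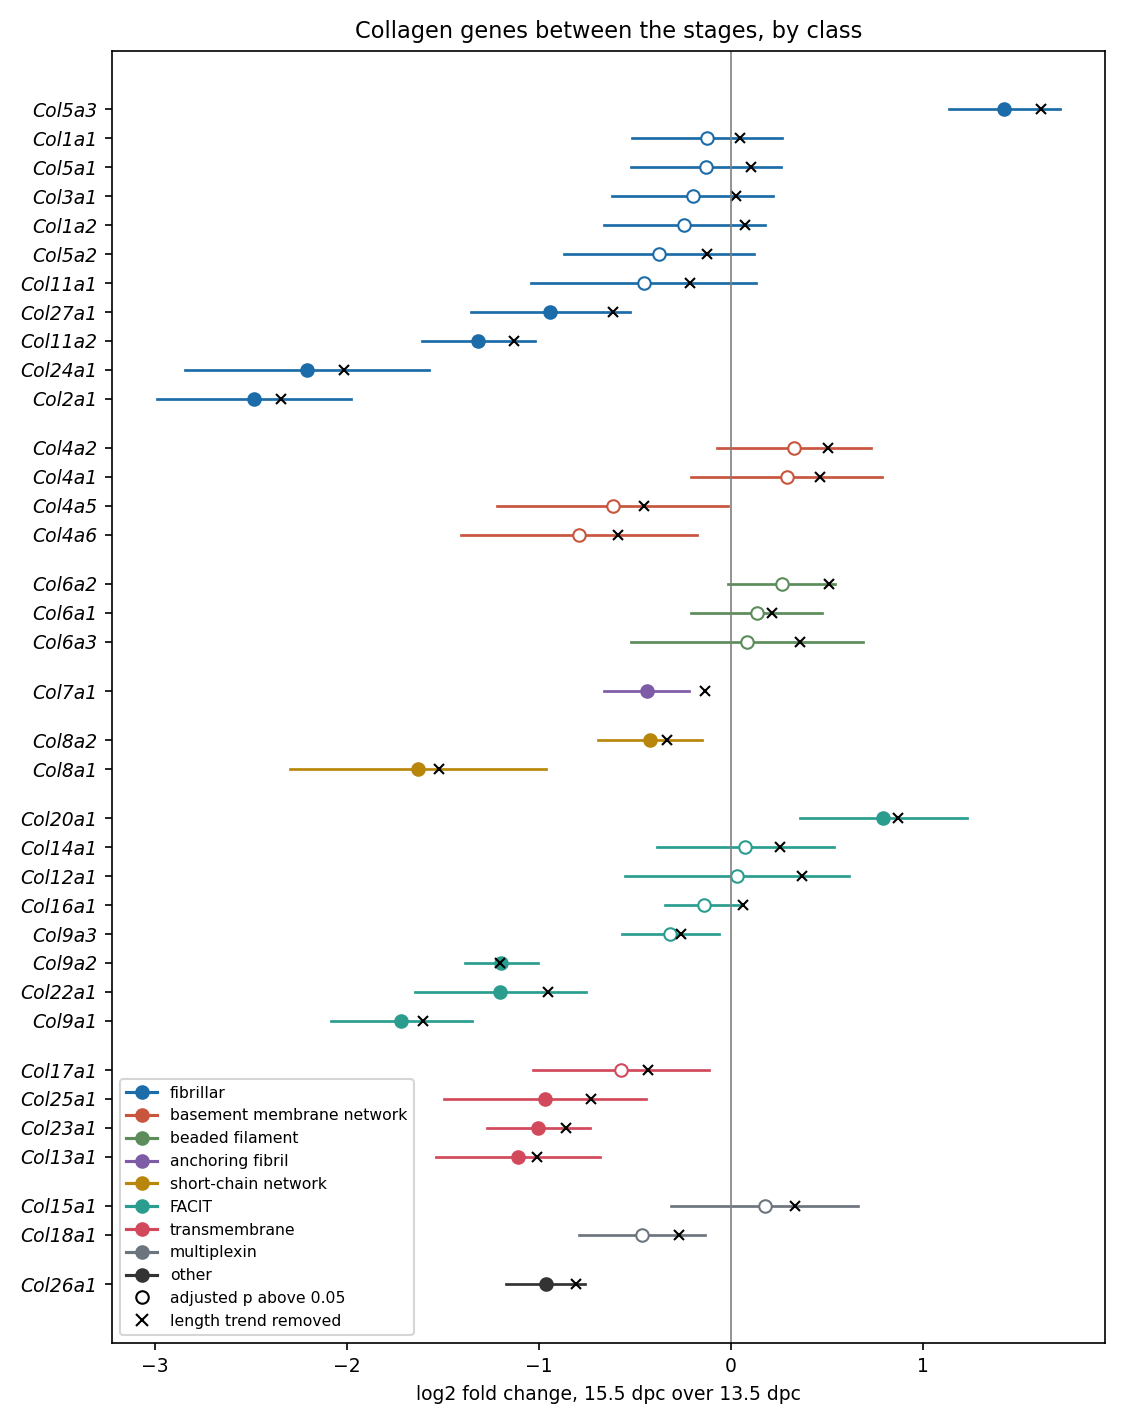
The log2 fold change of the 36 collagen genes tested, 15.5 over 13.5 dpc (x axis), is plotted by class, with 95% confidence intervals as lines. Filled points passed at an adjusted p of 0.05, open points did not, and crosses give the value with the length trend of each library removed, which lies to the right of nearly every point.

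The fibrillar genes of types I and III, which form the thick fibrils of connective tissue, were by far the most counted. *Col3a1* (chromosome 1, 45311538 to 45349706, plus strand, mm10) had 43836, 45916 and 49741 normalised counts at 13.5 dpc and 30085, 49091 and 42384 at 15.5 dpc. *Col1a1* (chromosome 11, 94936224 to 94953042, plus strand) had 33527, 34368 and 39422, then 25547, 39333 and 33569. In both genes the stages overlapped, and 15.5 dpc replicate 1 was the lowest of the 6 samples. *Col1a2*, whose product pairs with that of *Col1a1* in type I collagen, had 25962, 26901 and 29975, then 17478, 28586 and 24038, with the same sample lowest. The log2 fold change was -0.20 ± 0.18 for *Col3a1*, -0.12 ± 0.17 for *Col1a1* and -0.24 ± 0.18 for *Col1a2* (± SE, 3 samples per stage, as for all fold changes given with ±). The 95% confidence interval for *Col1a1* was -0.51 to 0.27, a range that holds moderate changes either way (adjusted p from edgeR 0.602, with 0.433 for *Col3a1* and 0.345 for *Col1a2*). With the length trend removed, the values were 0.03, 0.05 and 0.07 in that order, on the other side of 0. Without 15.5 dpc replicate 1 they were -0.022, 0.029 and -0.068, and without replicate 2 -0.35, -0.26 and -0.40, where *Col1a2* passed (0.0488).

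The type V genes, whose products lie inside type I fibrils and limit their width, divided. *Col5a3* (chromosome 9, 20770050 to 20815067, minus strand) had 169, 196 and 192 normalised counts at 13.5 dpc and 444, 549 and 502 at 15.5 dpc. All 3 later samples exceeded all earlier ones, and the gene rose 2.69-fold (log2 1.43 ± 0.12, edgeR adjusted p 0.000762). *Col5a1* had 7276 to 8459 at 13.5 dpc and 5472 to 8630 at 15.5 dpc (log2 -0.13 ± 0.17, adjusted p 0.595), and *Col5a2* 4774 to 5538 and 2693 to 5009 (log2 -0.37 ± 0.21, adjusted p 0.230). Both overlapped between the stages. *Col5a2* was -0.16 without 15.5 dpc replicate 1 and passed without replicate 2 (-0.56, adjusted p 0.0283).

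The remaining fibrillar genes are best known from cartilage or from low-abundance fibrils, and 4 of these 5 fell. *Col2a1* (chromosome 15, 97975602 to 98004695, minus strand), the main fibrillar collagen of cartilage, had 2574, 2348 and 2530 normalised counts at 13.5 dpc and 309, 584 and 434 at 15.5 dpc. These groups lie far apart, and the fall to 0.179-fold was the largest among the collagen genes tested (log2 -2.48 ± 0.22, edgeR adjusted p 0.000773). *Col24a1* had 69.2, 72.9 and 78.3, then 8.3, 21.5 and 16.4 (log2 -2.21 ± 0.27, adjusted p 0.00223), from raw counts of 6 to 21 at 15.5 dpc. *Col11a2*, a chain that copolymerises with type II collagen, had 1501, 1536 and 1528, then 519, 709.7 and 603 (log2 -1.32 ± 0.13, adjusted p 0.000976). *Col27a1* had 2129, 2112 and 2421, then 884, 1452 and 1136 (log2 -0.94 ± 0.18, adjusted p 0.0109), and no longer passed without 13.5 dpc replicate 3 (adjusted p 0.0553) or 15.5 dpc replicate 3 (0.0561). *Col11a1*, the partner of *Col11a2*, overlapped between the stages, at 398 to 489 and 221 to 463 (log2 -0.45 ± 0.25, adjusted p 0.219), and was -0.24 without 15.5 dpc replicate 1 and -0.78 without replicate 2, where it passed (0.00403). Over the 11 fibrillar genes, 1 rose, 4 fell and the median was -0.37, which was -0.16 without 15.5 dpc replicate 1, -0.56 without replicate 2 and -0.12 with the length trend removed.

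**Figure D2:**
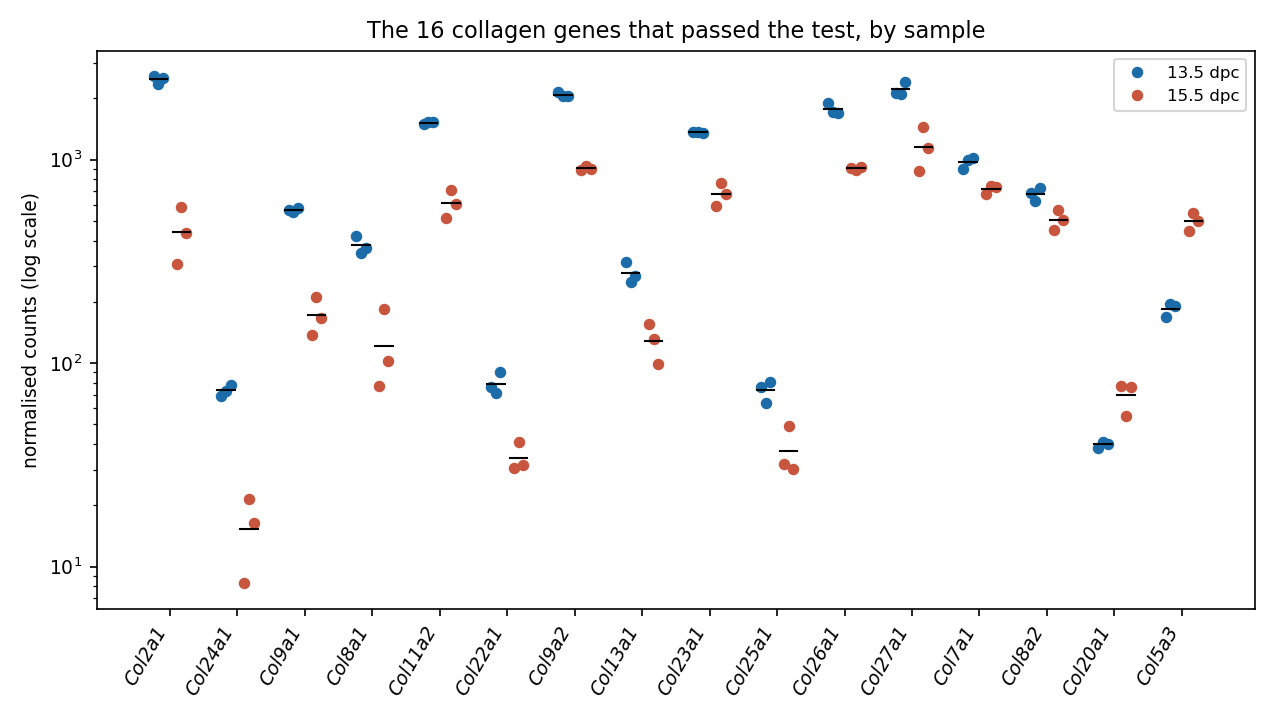
Normalised counts (log axis) of the 16 collagen genes that passed the test are shown for each of the 6 samples, with the mean of each stage as a bar. In each of the 16 the 3 samples of one stage lie wholly above those of the other, *Col2a1* at the left showing the largest fall and *Col5a3* at the right the largest rise.

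The 4 type IV genes tested, which build basement membranes, split into pairs of neighbouring genes. *Col4a1* and *Col4a2*, the chains of nearly all basement membranes, lie head to head on chromosome 8 with their annotated starts overlapping by 22 bases. *Col4a1* had 6709, 6970 and 8478 normalised counts at 13.5 dpc and 6301, 11340 and 9469 at 15.5 dpc. *Col4a2* had 3702, 3759 and 4630.2, then 3936, 6022 and 5246. Neither passed the test (log2 0.29 ± 0.21, adjusted p 0.337, and 0.33 ± 0.17, adjusted p 0.193), and in both replicate 1 was the lowest 15.5 dpc sample. Without that replicate both passed, at 0.50 (adjusted p 0.0144) and 0.48 (0.0129), and with the length trend removed at 0.47 (0.0246) and 0.51 (0.00593). Without replicate 2 the values were 0.11 (0.629) and 0.20 (0.287).

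*Col4a5* and *Col4a6*, chains of more restricted basement membranes, lie head to head on the X chromosome, 1308 bases apart, and their values lay on the other side of 0. *Col4a5* had 882, 856 and 1009.9 normalised counts, then 359.8, 798 and 631, and *Col4a6* 291, 319 and 346, then 111, 255 and 183. The stages did not overlap in either gene, but neither passed (log2 -0.62 ± 0.26, adjusted p 0.122, and -0.79 ± 0.26, adjusted p 0.0690). *Col4a6* met the study's call rule and passed with the length trend removed (-0.59, adjusted p 0.0231) or with DESeq2 (-0.78, adjusted p 0.0260), and without 15.5 dpc replicate 1 (-0.53, 0.0284) or 2 (-1.10, 0.00287). *Col4a5* passed without replicate 2 (-0.87, 0.00950) and was -0.36 without replicate 1. *Col4a3* and *Col4a4*, the chains of the mature kidney filter, lay at 0 to 10 raw counts per sample and were not tested.

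The 3 type VI genes, whose products form beaded filaments around many cells, had values above 0 and did not pass. *Col6a1* had 4966, 5287 and 5588 normalised counts, then 4685, 6872 and 5855 (log2 0.14 ± 0.15). *Col6a2* had 6004, 6442 and 7089.6, then 6873, 8709.5 and 7917 (0.27 ± 0.12, adjusted p 0.143), and *Col6a3* 1591, 1608 and 1914, then 1192, 2576 and 1649.6 (0.08 ± 0.26). The stages overlapped in each gene. *Col6a2* passed without 15.5 dpc replicate 1 (0.35, adjusted p 0.0210). Without replicate 2 *Col6a1*, *Col6a2* and *Col6a3* were at 0.011, 0.20 and -0.25, and none passed. Both *Col6a2* (0.52) and *Col6a3* (0.36) passed with the length trend removed. With no correction for composition *Col6a1* and *Col6a3* lay below 0, at -0.06 and -0.10.

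*Col7a1*, which makes the anchoring fibrils that fasten epithelial basement membranes to the tissue below, had 902, 995 and 1016 normalised counts at 13.5 dpc and 675, 746 and 730.3 at 15.5 dpc. It passed at a small fall (log2 -0.44 ± 0.09, adjusted p 0.0178), but with the length trend removed the value was -0.13 (adjusted p 0.434), and it did not pass when any 1 of the 13.5 dpc replicates (0.0577 to 0.0903) or 15.5 dpc replicate 3 (0.0804) was left out. The short-chain genes *Col8a1* and *Col8a2* encode the hexagonal network found under some endothelia. *Col8a1* had 424, 347 and 369.9, then 77.5, 184 and 102, and fell to 0.324-fold (log2 -1.63 ± 0.29, adjusted p 0.00821). *Col8a2* had 683, 629 and 726, then 449.8, 564 and 508, a fall of less size (log2 -0.42 ± 0.12, adjusted p 0.0398), which did not pass when any 1 of the 13.5 dpc replicates (0.0902 to 0.153) or 15.5 dpc replicate 3 (0.134) was left out.

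Of the 8 FACIT genes tested, 3 fell and 1 rose. *Col9a1* and *Col9a2* encode chains of type IX, the FACIT of cartilage fibrils. *Col9a1* had 569, 551 and 582 normalised counts, then 137, 211 and 168 (log2 -1.72 ± 0.16, edgeR adjusted p 0.000907), and *Col9a2* 2149, 2058 and 2050, then 894, 934 and 904 (-1.20 ± 0.08, adjusted p 0.000405). *Col9a3*, the remaining chain of the same trimer, had 1120, 1063 and 1069.5, then 886, 766 and 966 (-0.31 ± 0.11), with the stages apart but an adjusted p of 0.0756. Its exons overlap those of *Tcfl5* on the opposite strand over 6.07% of their bases. *Col22a1*, known from tissue junctions such as that of muscle and tendon, fell from 76.5, 71.2 and 90.5 to 30.4, 40.9 and 31.5 (-1.20 ± 0.19, adjusted p 0.00562). *Col20a1* had 38.3, 41.2 and 40.2, then 77.5, 55.2 and 76.8 (0.80 ± 0.19, adjusted p 0.0226), and did not pass with any 1 of the 13.5 dpc replicates or 15.5 dpc replicate 3 left out (0.0844 to 0.0977). *Col12a1* and *Col14a1*, the FACITs of type I fibrils, had values of 0.03 ± 0.25 and 0.08 ± 0.20, and *Col16a1* -0.14 ± 0.09. *Col12a1* passed with the length trend removed (0.37, adjusted p 0.0147).

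Of the 4 transmembrane genes, 3 fell, and the median was -0.99. *Col13a1*, found at cell-matrix contacts, had 315, 249.5 and 267 normalised counts, then 156, 131 and 99.5 (log2 -1.11 ± 0.18, adjusted p 0.00652). *Col23a1* had 1370.4, 1361 and 1359, then 589.6, 771 and 678 (0.499-fold, adjusted p 0.00166), and its 13.5 dpc samples differed by an SD of only 6.16. *Col25a1*, known mainly from neurons and developing muscle, had 76.5, 63.4 and 80.4, then 31.8, 49.1 and 30.2 (-0.97 ± 0.23, adjusted p 0.0225), and did not pass with any 1 of the 13.5 dpc replicates or 15.5 dpc replicate 3 left out (0.0561 to 0.0958). *Col17a1*, the hemidesmosome collagen of skin-type epithelia, was low, with 43.1 to 50.1 at 13.5 dpc and 26.4 to 36.8 at 15.5 dpc (-0.57 ± 0.20, adjusted p 0.0753), with the stages apart, and passed without 15.5 dpc replicate 2 (-0.74, 0.0260).

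The multiplexin *Col18a1*, the source of endostatin, had 7542, 7394 and 8118 normalised counts, then 4541, 6550 and 5646. The stages did not overlap, and the adjusted p lay just outside the threshold (log2 -0.46 ± 0.14, 0.0540). It passed with DESeq2 (-0.45, 0.0241), with the length trend removed (-0.27, 0.0179), and without 15.5 dpc replicate 1 (-0.33, 0.0255) or 2 (-0.58, 0.00469). It did not pass with any 1 of the other libraries left out (0.138 to 0.178), nor with the replicate block alone (0.0667) or together with the length trend removed (0.0576). *Col15a1*, the other multiplexin, had 1141 to 1353 and 981 to 1795 (0.18 ± 0.21), overlapping. *Col26a1*, which fits none of these classes and whose gene was first described in testis and ovary, had 1902, 1721 and 1694.5, then 915, 891 and 919 (-0.96 ± 0.09, edgeR adjusted p 0.000907), and its exons shared 1.85% of their 50-base windows with other genes, the highest share among the members.

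The 5 members that did not pass the filter were *Col4a3*, *Col4a4*, *Col10a1*, *Col19a1* and *Col28a1*. *Col10a1*, the collagen of hypertrophic cartilage, had 1 count in the 6 libraries together, in 13.5 dpc replicate 2. *Col19a1* had 7, 9 and 19 raw counts at 13.5 dpc and 4, 10 and 1 at 15.5 dpc, and *Col28a1* 4, 2 and 8, then 6, 10 and 13. In normalised counts *Col28a1* had 3.6, 1.7 and 5.7, then 8.3, 10.2 and 16.4, so that its stages lay apart, at levels too low for the test.

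Over all 36 genes tested, the stages did not overlap in 22, 2 higher and 20 lower at 15.5 dpc, against 46.4% of all genes (22.8% higher and 23.6% lower). The sizes of the changes did not follow gene length among the collagen genes themselves (rho 0.11 over 36 genes that share libraries, given without a test), although they did over all genes. *Col2a1*, *Col5a3*, *Col8a1*, *Col9a1*, *Col9a2*, *Col11a2*, *Col13a1*, *Col22a1*, *Col23a1*, *Col24a1* and *Col26a1* kept their direction and passed under each other normalisation, filter and tool tried, with the replicate block, with the length trend removed and with any 1 library left out, except that *Col24a1*, with 6 counts in 15.5 dpc replicate 1, was not tested under the filter that asks for at least 10 counts in every sample.

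**Figure D3:**
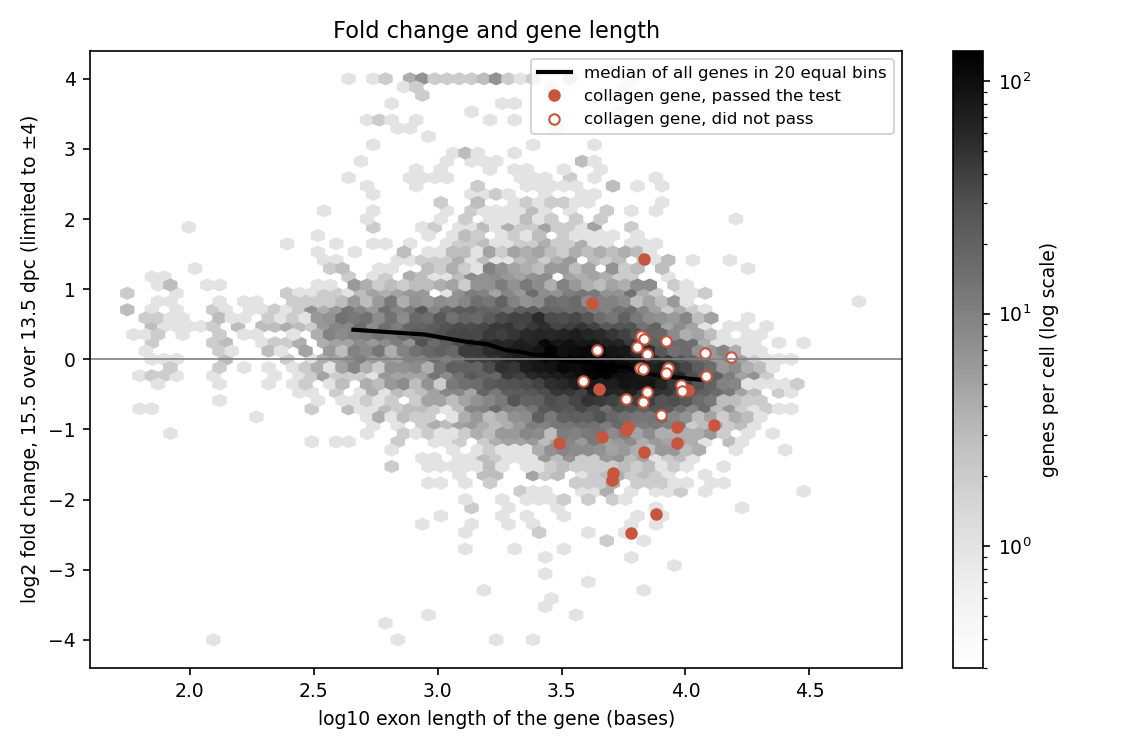
The log2 fold change of each gene tested (y axis, values beyond 4 drawn at 4) is plotted against the log10 of its exon length, with the density of all genes in grey, their median in 20 bins of equal size as a line and the collagen genes as coloured points. The line runs downward with length, and the collagen genes that fell most, such as *Col2a1* (-2.48) and *Col24a1* (-2.21), lie well below it.

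Per exon base, 3 genes held most of the collagen counts. As a share of all collagen counts scaled by exon length, *Col1a1* held 22.8% to 23.6% at 13.5 dpc and 24.0% to 24.2% at 15.5 dpc, *Col3a1* 23.3% to 23.9% and 22.3% to 23.8%, and *Col1a2* 9.54% to 9.72% and 8.94% to 9.51%. These levels depend on the length used. The table counts all annotated exon bases (12136 for *Col1a2*), and with the length of the principal transcript (5348) *Col1a2* held 15.6% to 15.9% and 14.7% to 15.6%, and *Col3a1* was highest, at 25.3% to 25.9% and 24.3% to 25.9%. By class, with exon lengths, the fibrillar genes held 66.2% ± 0.372 (SD, n = 3) of the collagen counts at 13.5 dpc and 64.4% ± 1.31 at 15.5 dpc. The basement membrane genes held 7.91% ± 0.439 and 10.6% ± 0.614, and the type VI genes 9.03% ± 0.184 and 11.7% ± 0.557. The FACIT share was 7.38% ± 0.398 and 5.92% ± 0.942, and the transmembrane share 1.34% ± 0.111 and 0.766% ± 0.116. No 15.5 dpc sample fell within the 13.5 dpc range in any of these classes (p = 0.1 by the two-sided exact permutation test, which cannot go lower with 3 against 3). All collagen genes together took 1.44%, 1.49% and 1.64% of all counts at 13.5 dpc and 0.814%, 1.49% and 1.22% at 15.5 dpc, with overlap (exact permutation p = 0.3). The log2 ratio of the stage means was -0.38, and was -0.17 without 15.5 dpc replicate 1 and -0.58 without replicate 2. As summed normalised counts, which allow for the composition of each library, it was -0.18, with overlap (exact permutation p = 0.4). Scaled by exon length, the collagen share of all counts was 0.490%, 0.507% and 0.585% at 13.5 dpc and 0.202%, 0.472% and 0.346% at 15.5 dpc, without overlap (log2 -0.63, exact permutation p = 0.1). Unlike the summed normalised counts, this share does not allow for the composition of each library.

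Ratios between chains compare genes within a library, so they do not depend on the scaling between libraries, and 14 of 15 listed pairs had counts enough. In 10 of the 14 the stages did not overlap, each at the smallest exact permutation p of 0.1 (adjusted over the pairs 0.14). Among all single genes tested the stages did not overlap in 46.4%, and the share over other gene pairs was not computed. *Col4a1* to *Col4a2* was 1.76, 1.80 and 1.78 at 13.5 dpc and 1.55, 1.83 and 1.75 at 15.5 dpc, with overlap (exact permutation p = 0.7), and *Col6a3* to *Col6a1* also overlapped (0.118 and 0.110 as geometric means). *Col1a1* to *Col1a2*, genes of unequal exon length (6563 and 12136), moved little, from 2.36 to 2.43 at 13.5 dpc to 2.54 to 2.70 at 15.5 dpc. The difference between their log2 fold changes was 0.12, and -0.024 with the length trend removed, on the other side of 0. Of the 10 pairs this was the only one to change sign. By principal transcript length these were 1.17 and 1.27 as geometric means.

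The ratios of the other pairs whose stages were apart shifted by more. *Col9a3* to *Col9a2*, chains of the same trimer, was 0.419, 0.415 and 0.419 at 13.5 dpc and 0.796, 0.659 and 0.858 at 15.5 dpc. *Col11a1* to *Col11a2* was 0.188, 0.211 and 0.226, then 0.302, 0.462 and 0.344. *Col8a1* to *Col8a2* went the other way, from 0.545, 0.486 and 0.448 to 0.151, 0.287 and 0.177. *Col5a3* to *Col5a1* was 0.0298 and 0.0887 as geometric means, and *Col4a5* to *Col4a1* 0.126 and 0.0654. *Col15a1* to *Col18a1*, the multiplexins, was 0.174 and 0.267. As geometric means, *Col9a1* to *Col9a2* was 0.166 and 0.113, *Col5a1* to *Col5a2* 1.71 and 2.05, and *Col4a5* to *Col4a6* 3.41 and 3.89. Every 15.5 dpc sample lay on one side of every 13.5 dpc sample in these pairs.

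**Figure D4:**
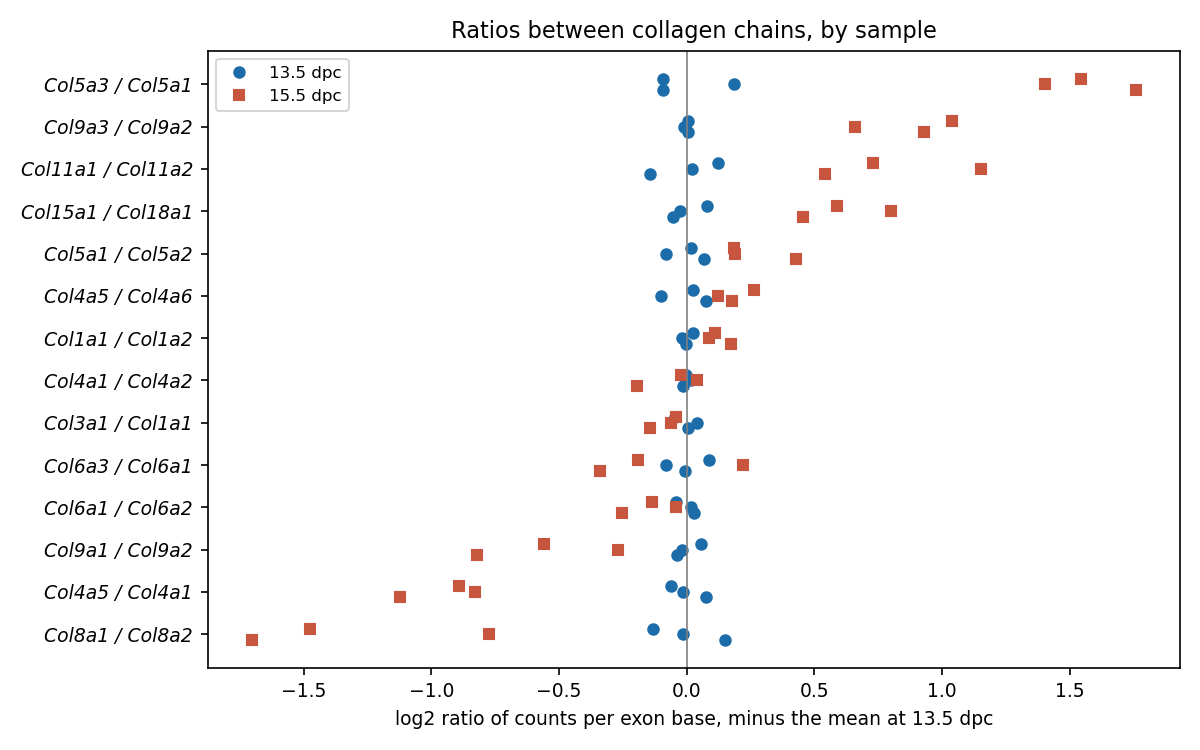
The log2 ratio of counts per exon base between the genes of each of 14 pairs, less its mean at 13.5 dpc (x axis), is plotted for each sample. The 13.5 dpc samples lie close to 0 in every pair, the 15.5 dpc samples of *Col5a3* to *Col5a1* lie furthest to the right and the mean of those of *Col8a1* to *Col8a2* lies furthest to the left.

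Other genes of the collagen pathway, listed by role, passed in both directions, 23 of the 69 tested (33.3%, against 22.3% of all genes, of which 11.6% higher and 10.7% lower). Of 20 genes for chain modification and folding, 4 rose and 3 fell. *Ppib* (log2 1.25 ± 0.20), a prolyl isomerase, and *P4hb* (1.13 ± 0.14), which serves both prolyl hydroxylation and disulphide formation, rose, as did *Tmem38b*, a cation channel of the endoplasmic reticulum (0.58 ± 0.16). *P3h3*, a family member of the prolyl 3-hydroxylases, fell (-0.56 ± 0.11), and *Serpinh1*, the collagen chaperone, named after its values were seen, was just inside the threshold (-0.30 ± 0.09, edgeR adjusted p 0.0499). Of 10 genes for procollagen export, 3 rose and none fell, *Sec24d*, a COPII coat subunit (0.76 ± 0.11), *Mia2*, a cargo receptor (0.74 ± 0.08), and *Creb3l1*, a factor for secretory genes (0.57 ± 0.09). *P4hb* and the COPII genes also serve secretory cells that make other proteins. The summed level of the 7 acinar markers, all of which rose, was 75047 to 89129 normalised counts at 13.5 dpc and 418684 to 973994 at 15.5 dpc, and its part in these results was not tested.

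Among the genes for propeptide cleavage, 3 of 8 fell and none rose, namely *Mep1a* (log2 -1.44 ± 0.31), a meprin with only 18.9 to 21.9 normalised counts at 13.5 dpc, *Adamts2*, the procollagen N-proteinase (-1.34 ± 0.15), and *Bmp1*, the C-proteinase (-0.62 ± 0.09). Of 7 crosslinking genes, *Lox*, the lysyl oxidase, rose (0.67 ± 0.19), while *Pxdn*, which crosslinks type IV collagen (-0.78 ± 0.22), and *Loxl3* (-0.56 ± 0.14) fell. Of 12 genes for turnover, 4 fell and none rose, namely *Mmp16* (-1.07 ± 0.26), *Mmp14* (-0.58 ± 0.17) and *Mmp2* (-0.48 ± 0.10), which are matrix metalloproteinases, and the inhibitor *Timp3* (-0.42 ± 0.12). Of 9 receptor genes, *Itga11* (-1.10 ± 0.20) and *Ddr2* (-0.75 ± 0.22), a chain of an integrin and a kinase that bind fibrillar collagen, fell and *Adgrg1* rose (0.30 ± 0.09). The type VI chains outside the list did not pass, with *Col6a6* at 159 to 304 and 172 to 722 (0.96 ± 0.48) and *Col6a4* at 15.5 to 28.3 and 13.9 to 23.5 (-0.24 ± 0.31). The number passing over these lists moved with single libraries, as did that over all genes. It was 8 (11.6% of those tested) without any 1 of the 13.5 dpc samples, where 7.83% to 8.88% of all genes passed, 7 (10.1%) without 15.5 dpc replicate 3, against 9.05%, and 36 (52.2%) without replicate 2, against 48.0%. In these fits the share lay close to that of all genes. Without 15.5 dpc replicate 1 it was 31 (44.9%, against 26.9%).

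The labelled tissue was checked on marker lists. Of 9 markers of pancreatic epithelium, 4 rose (*Ptf1a*, *Krt18*, *Krt8* and *Cdh1*), 2 fell (*Sox9* and *Nkx6-1*) and 3 did not pass, among them *Pdx1* at 1194 to 1284 normalised counts and 1265 to 1470.5. Their summed level was 26666 to 28303 at 13.5 dpc and 35117 to 43375 at 15.5 dpc. Of 11 mesenchyme markers tested, 3 rose (*Dcn*, *Lum* and *Thy1*) and 5 fell (*Pdgfra*, *Nkx3-2*, *Barx1*, *Prrx1* and *Twist1*), and their summed level was 20799 to 21190 at 13.5 dpc and 18105 to 18549 at 15.5 dpc. The summed endothelial level overlapped, at 6209 to 6686 and 6046 to 7234, and so did the smooth muscle and pericyte level, at 4760 to 5283 and 4546 to 4786, in which *Acta2* and *Tagln* rose and *Rgs5* fell. The summed levels of the mesothelial markers (2283 to 2356, then 1773 to 2052), the leukocyte markers (1373 to 1379, then 1059 to 1275) and the neural markers (1101 to 1151, then 795 to 836) were lower at 15.5 dpc without overlap. Of 6 mesothelial markers, *Msln* rose (2.00 ± 0.35), *Wt1* fell (-0.75 ± 0.11) and the rest did not pass. Only *Csf1r* passed among 6 leukocyte markers, as lower, and 4 of 8 neural markers fell while none rose. Because *Col2a1*, *Col9a1*, *Col9a2* and *Col11a2* are best known from cartilage, its markers were counted as well. Of 8 listed, 3 were tested, with *Acan* (-1.04 ± 0.23) and *Hapln1* (-1.22 ± 0.33) lower and *Chad* (1.15 ± 0.21) higher. The summed level was 822 to 926 and 361 to 622, most of it *Acan* (682 to 771 and 276 to 499), with *Hapln1* next (111 to 128 and 30.4 to 81.8). The markers not tested were near the floor. The matrilin genes *Matn1* (0.7 to 1.7, then 0) and *Matn3* (2.6 to 3.6, then 0 to 2.5) were lower at 15.5 dpc. *Comp* was higher without overlap (3.6 to 4.3, then 6.1 to 12.5), and *Cytl1* overlapped (1.8 to 5.1, then 3.1 to 5). *Snorc* was at 0 in all samples but 15.5 dpc replicate 1, at 2.8. *Col10a1* was near 0, as given above. The part of these cell types in the collagen values was not tested.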

How the data were processed

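RNA of wt mouse pancreata was measured at 13.5 and 15.5 dpc, in 3 pooled samples per stage. The authors aligned single-end reads to mm10 with GSNAP, used featureCounts 1.4.6 to count reads with a unique alignment per Ensembl gene (bcl2fastq 1.8.4 is also named in the submitters' processing notes), and deposited raw counts with the exon length of each gene. Whether counting used the strand is not given in the sources used here. Symbols came from GENCODE for 35449 of 37224 identifiers (95.2%). The 6 sample columns were all used.

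The stages were compared with edgeR 4.0.16 and limma 3.58.1 in R 4.3.3 (filterByExpr, TMM factors of 0.847 to 1.081, quasi-likelihood test without covariates, Benjamini-Hochberg adjustment over 15578 genes), with DESeq2 1.42.0 as an alternative. Normalised counts were scaled to a common effective library size, the geometric mean of the samples. The length trend was a lowess of each library's deviation on log exon length (span 0.5). Single values were compared with exact permutation tests. Motifs were searched on both strands. Steps were tested on simulated data. A floor of 3 counts in 10546028 to 16389237 was applied and covers counting error only.

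The members and lists were chosen with earlier results of these data known. All members are named. From each pathway list up to 4 genes with the largest changes among those that passed were named, or the 2 most counted where under 2 passed. Alternatives were other normalisations and filters, DESeq2, the replicate number as a block, the length trend removed, and each sample left out. Levels by principal transcript length were added after seeing the data. Figures were drawn with Python 3.11.15 and matplotlib 3.10.9.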

Additional observations from a re-analysis of the deposited data

How the results depend on the processing

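Under other normalisations and filters, DESeq2, the replicate block (16) and removal of the length trend, 15 to 22 collagen genes passed. In these fits the share of all genes passing also moved, from 14.4% (no filter) to 32.8% (length trend removed). By the study's call rule 11 collagen genes passed, against 10.4% of protein-coding genes. With 1 library left out 11 to 23 passed, where the share of all genes passing moved from 7.83% to 48.0%. Of 575 single-gene comparisons with an alternative, 494 kept direction and side of the threshold, 35 newly passed, 21 no longer passed and 25 changed sign. With no correction for composition, which shifts the median of all genes from -0.01 to -0.22, the collagen median was -0.63 and the FACIT median -0.44, and *Col6a1* (-0.062), *Col6a3* (-0.10), *Col12a1* (-0.16), *Col14a1* (-0.12) and *Col15a1* (-0.014) fell below 0. With the length trend removed the collagen median was -0.24, the FACIT median -0.10 and the type VI median 0.36, and *Col1a1* (0.049), *Col1a2* (0.073), *Col3a1* (0.030), *Col5a1* (0.11) and *Col16a1* (0.066) rose above 0. With the replicate block as well, these were -0.25, -0.10 and 0.35, and 0.047, 0.072, 0.027, 0.11 and 0.057. Same-numbered samples had correlations of 0.22, -0.22 and 0.04, which give no sign of pairing but with 3 samples per stage cannot exclude it. With the replicate block alone *Col4a6* passed (-0.85), *Col8a2* did not (adjusted p 0.0790) and *Col12a1* was -0.018. The basement membrane median of -0.16 was 0.007 with the length trend removed, -0.011 with the block as well, -0.35 with no correction for composition, -0.45 with no filter, which adds genes of low counts, and -0.38 to 0.065 with 1 library left out, and the fibrillar median was -0.56 to -0.16 with 1 left out. Leaving out single libraries gave collagen medians of -0.53 to -0.33, 7 to 36 pathway genes, a number that moved with that over all genes, and ranges that crossed 0 for *Col1a1* (-0.26 to 0.029), *Col5a1* (-0.28 to 0.031), *Col6a3* (-0.25 to 0.31), *Col12a1* (-0.26 to 0.25), *Col14a1* (-0.15 to 0.24) and *Col15a1* (-0.051 to 0.37). The cause was not tested. By principal transcript length *Col6a1* to *Col6a2* was 0.782 and 0.708, below 1, and *Col3a1* to *Col1a1* 1.31 at 15.5 dpc, above 1. The 5 members that did not pass the filter had too few counts at this depth to be tested.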
